A study of Drosophila melanogaster with 16 samples.

Results

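The comparison described here is that of S2 cells in which PARylation had been inhibited with PJ34 (PARPi) against untreated S2 cells (WT), both from the December set of libraries. S2 cells are a line of macrophage-like blood cells derived from Drosophila melanogaster embryos. PARPi cells had received 10 µM PJ34 for 16 h, and there were 3 PARPi and 3 WT libraries, made from rRNA-depleted total RNA and sequenced in pairs. The members are all genes with 10 or more counts in total over these 6 libraries, a rule that does not use the direction or size of any difference. This left 11171 genes of the 17737 in the count table, of which 3868 had no count in any of the 6 libraries. The series holds 16 libraries in all. It also includes cells given siRNA against PARP1 (labelled KD), and the 3 December KD libraries were used here for the shared estimate of the spread and for a direct comparison, while the 7 October libraries were not analysed here. All groups were the same cell line in the same medium, and the labels name no vehicle for PJ34.

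PARP1, the product of Parp1, works in the nucleus, where it consumes NAD+ and leaves chains of ADP-ribose (PAR) on proteins, and Parg, a glycohydrolase, takes the chains apart. PJ34 is a small molecule that blocks this enzymatic activity and leaves the protein in place. In flies the enzyme is known for loosening chromatin at heat shock and immune genes, and it has been tied to the pausing and elongation of RNA polymerase II and to splicing. The comparison asks which RNA levels differ in cells given this inhibitor of the PAR-building activity.

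The 6 libraries held 81991083 to 90439074 counts each. Levels are given as CPM, a gene's counts relative to its library's TMM-scaled total, without correction for gene length. A difference is a log2 fold change, PARPi minus WT, tested in a quasi-likelihood model (edgeR) and adjusted by Benjamini-Hochberg over the 11171 genes. A gene is called where that adjusted p is below 0.05, and the verbs rose and fell are kept for such genes. Among genes at 10 to 20 CPM, counting error had a median of 2.86% and the SD between replicates one of 5.95% of the level, so spread between libraries rather than depth set the precision. The labels do not say whether replicates came from separate cultures, although the study describes them as independent experiments; if they did not, the p-values measure technical spread.

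WT replicate 3 and PARPi replicate 1 stood apart from the others. The correlation of log2 CPM across genes averaging 1 CPM or more was 0.997 to 0.998 between WT libraries, 0.995 to 0.998 between PARPi libraries and 0.994 to 0.997 between a WT and a PARPi library. On the first principal component of these values, which took 36.4% of the variance, PARPi replicate 1 lay at one end and WT replicate 3 at the other. The second, with 26.1%, had PARPi replicates 2 and 3 at one end, and PARPi replicate 1 was with the WT libraries at the other. Of 13 markers of S2 cells and hemocytes, 11 reached a mean of 1 CPM. Among these were the GATA factor srp, the peroxidasin Pxn and the scavenger receptor crq. The markers NimC1 and Sr-CI averaged below 1 CPM. He was at 2.37, 2.44 and 2.37 CPM in WT, and eater at 6.72, 6.67 and 5.99 CPM. The 13 markers summed to 3870 to 4260 CPM in WT and 3760 to 4570 CPM in PARPi. Of the fat body and gut markers, 4 of 8 were at 0 and the sum was at most 0.173 CPM. The 8 muscle markers summed to 34.6 to 39.9 CPM in WT and 33.8 to 36.7 CPM in PARPi. The 6 neuron and glia markers summed to 60.7 to 67.9 and 59.4 to 72.7 CPM, and the 6 germline markers to 12.6 to 14 and 13.9 to 14.7 CPM. The 7 lamellocyte and crystal cell markers summed to 492 to 530 and 473 to 541 CPM. Nearly all of that sum was cher, at 517, 486 and 478 CPM in WT and 525, 471 and 458 CPM in PARPi. In WT, PPO3 was at 8.53, 8.28 and 9.21 CPM and atilla at 1.37, 1.28 and 1.36 CPM. Both lz and PPO2 averaged below 1 CPM.

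Differences between PARPi and WT cells were small. Over the 7473 genes averaging 1 CPM or more the median log2 fold change was -0.0029, 10% of the genes lay below -0.17 and 10% above 0.15. An absolute log2 fold change above 1 was measured for 4 of these genes and above 0.5 for 63. In all, 13 genes were called, 0.116% of those tested: 11 rose, 0.0985% of those tested, and 2 fell, 0.0179%. Their absolute log2 fold changes ran from 0.34 to 0.77, and in each of the 13 the PARPi and WT libraries did not overlap, as was the case for 983 genes (8.8%) in the higher and 745 genes (6.67%) in the lower direction over all genes tested. An unadjusted p below 0.05 was found for 621 genes (5.56%) with higher and 686 genes (6.14%) with lower levels in PARPi. With DESeq2, 133 of 7706 genes with an adjusted p were called (1.73%), 60 higher (0.779%) and 73 lower (0.947%), and these included the 13. The number of calls depended on single libraries: it was 94 without PARPi replicate 1, 64 without PARPi replicate 2, 4 without PARPi replicate 3, 4 without WT replicate 1, 13 without WT replicate 2 and 8 without WT replicate 3. It was 46, 31 and 5 without KD replicates 1, 2 and 3, which enter only the estimate of the spread and the scaling.

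**Figure D1:**
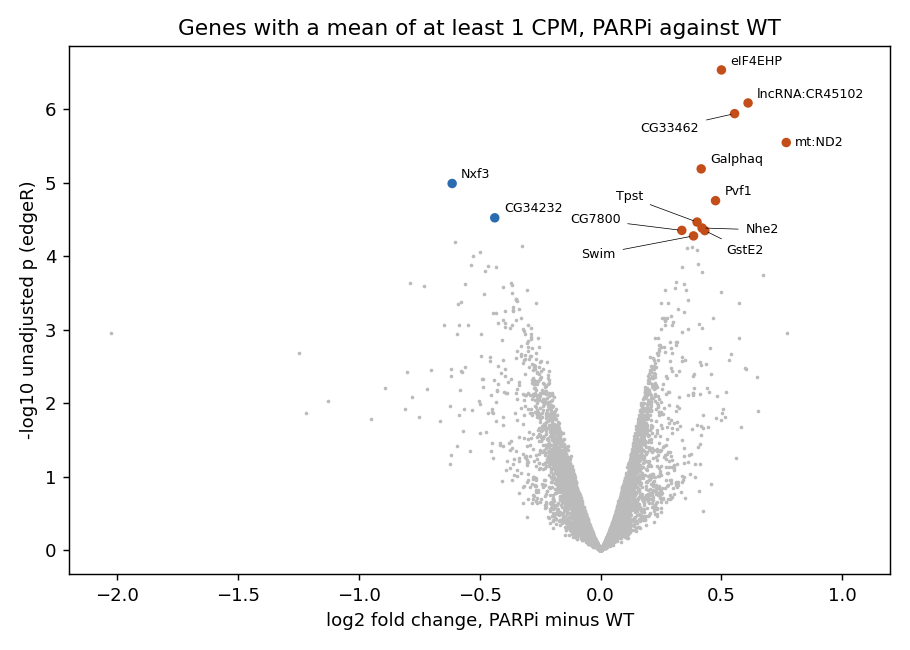
Each point is 1 of the genes averaging 1 CPM or more, with its log2 fold change (PARPi minus WT) on the horizontal axis and the -log10 of the unadjusted edgeR p on the vertical axis. Coloured and named points are the 13 called genes, 11 on the right and 2 on the left, and the points farthest to the left, which are not called, include Hsp70Bb at -2.03.

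The genes that rose included 3 that were also called in each of the fits that left out a single WT or PARPi library: eIF4EHP, lncRNA:CR45102 and CG33462. eIF4EHP (FBgn0053100; 3R, 24063077 to 24108960, minus strand) encodes a cap-binding protein that competes with eIF4E and represses translation of its target mRNAs. Its level was 54.0, 51.7 and 50.3 CPM in WT replicates 1 to 3 and 73.3, 71.3 and 76.1 CPM in PARPi replicates 1 to 3. The groups were thus well apart, with all 3 PARPi libraries within a narrow range. The log2 fold change was 0.50 (SE 0.064, adjusted p = 0.0033), the smallest p of the comparison. eIF4EHP overlaps CG10694 and Syx1A in the annotation, and no source used here gives the strand setting of the counting, so a share of its reads may belong to those genes.

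lncRNA:CR45102 (FBgn0266549; X, 3701857 to 3703285, plus strand), a long non-coding RNA, was at 14.1, 11.97 and 13.1 CPM in WT and at 17.7, 21.6 and 20.5 CPM in PARPi. PARPi replicate 1 was the lowest of the treated libraries and still above all of WT. The log2 fold change was 0.61 (SE 0.084, adjusted p = 0.0043). CG33462 (FBgn0053462; 2R, 15696794 to 15698010, plus strand), a protein-coding gene, was at 9.29, 9.29 and 9.75 CPM in WT and at 14.5, 12.4 and 14.7 CPM in PARPi, a log2 fold change of 0.55 (SE 0.078, adjusted p = 0.0043). Its WT libraries were almost level with each other.

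The largest rise was that of mt:ND2 (FBgn0013680; mitochondrial genome, 240 to 1263, plus strand), which encodes a subunit of respiratory complex I. It was at 9.24, 10.9 and 11.5 CPM in WT and at 14.5, 17.7 and 21.7 CPM in PARPi. The treated libraries spread over a wider range than the untreated ones. The log2 fold change was 0.77 (SE 0.12, adjusted p = 0.0079). Without WT replicate 1 the adjusted p was 0.082, the highest of the 24 alternatives, whose range began at 4.4e-09. The level of mt:ND2 was far below that of mt:ND3 and mt:ND1, at 1182 and 1234 CPM in WT replicate 1. Whether all reads of mt:ND2 were counted was not tested.

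Galphaq and Pvf1 act in signalling from the cell surface. Galphaq (FBgn0004435; 2R, 12612740 to 12623197, plus strand), the G protein subunit that activates phospholipase C, was at 47.3, 45.1 and 41.7 CPM in WT and 57.8, 58.8 and 62.3 CPM in PARPi, a log2 fold change of 0.42 (SE 0.067, adjusted p = 0.015). Pvf1 (FBgn0030964; X, 18832682 to 18842901, plus strand), a PDGF- and VEGF-related ligand of the receptor Pvr, was at 46.3, 44.4 and 43.9 CPM in WT and 62.7, 53.2 and 71.4 CPM in PARPi. Its log2 fold change was 0.48 (SE 0.083, adjusted p = 0.028). For both genes every treated library was above every untreated one, with PARPi replicate 3 the highest.

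The 5 other genes that rose had adjusted p-values of 0.042 to 0.046. GstE2 (2R, 18399486 to 18400375), a glutathione S-transferase, went from 13.7 ± 1.35 CPM (SD, n = 3) in WT to 18.4 ± 0.32 in PARPi, and Nhe2 (2L, 21104568 to 21134255), a sodium and hydrogen exchanger, from 14.3 ± 0.37 to 19.2 ± 1.39. Tpst (X, 13563823 to 13593224), which sulfates tyrosines of secreted proteins, went from 13.6 ± 0.60 to 18 ± 1.38 CPM. Swim (2R, 22189817 to 22202671), a secreted protein that binds Wingless, went from 161 ± 9.28 to 209.6 ± 17.4 CPM, and CG7800 (3R, 8217957 to 8219734) from 169 ± 7.40 to 214 ± 9.61 CPM. The log2 fold changes of these genes were 0.43 for GstE2, 0.42 for Nhe2, 0.40 for Tpst, 0.38 for Swim and 0.34 for CG7800.

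Both genes that fell had low levels in WT. Nxf3 (FBgn0263232; 3L, 13965203 to 13973067, plus strand) belongs to the family of nuclear RNA export factors and in the fly ovary carries piRNA precursors out of the nucleus. It was at 9.03, 7.98 and 8.71 CPM in WT and 6.44, 4.98 and 5.34 CPM in PARPi, a log2 fold change of -0.61 (SE 0.10, adjusted p = 0.019). CG34232 (FBgn0085261; 2R, 12164909 to 12165812, minus strand) was at 12.2, 12.6 and 10.8 CPM in WT and 8.49, 8.57 and 9.15 CPM in PARPi, a log2 fold change of -0.44 (SE 0.080, adjusted p = 0.042). In both genes the treated libraries were all lower than any untreated library.

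**Figure D2:**
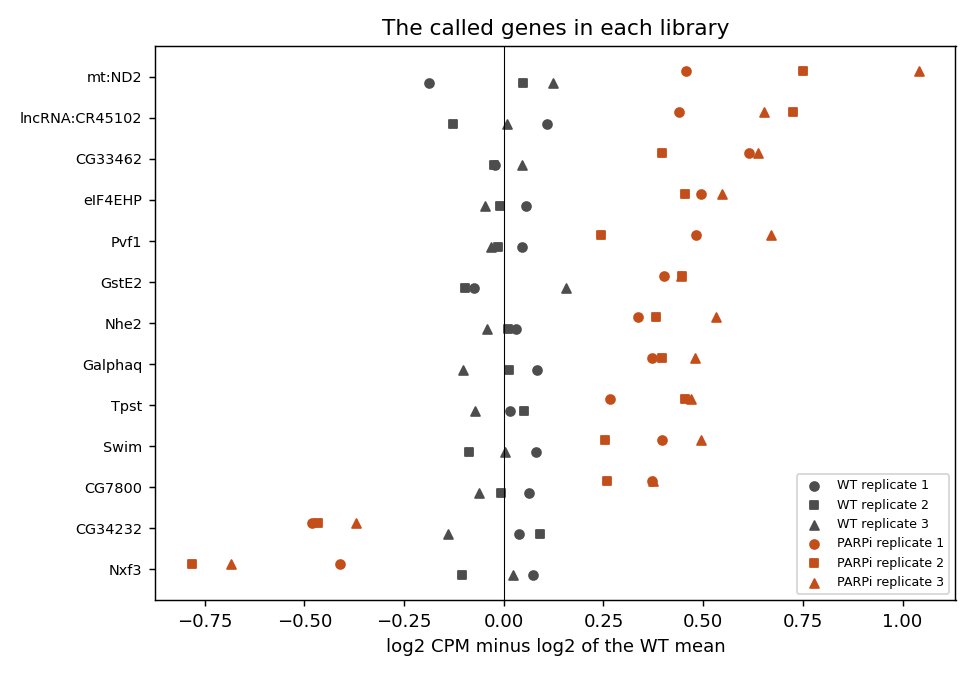
Rows are the 13 called genes, and the horizontal axis is the log2 CPM of a library minus the log2 of the WT mean of that gene. Grey symbols are WT and orange symbols PARPi, with a circle, square and triangle for replicates 1, 2 and 3. No row has overlapping groups, and the widest spread among treated libraries is that of mt:ND2.

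Leaving out a single WT or PARPi library kept eIF4EHP, lncRNA:CR45102 and CG33462 called in 6 of 6 fits, mt:ND2 in 5 and Galphaq in 4, and the other genes in 2 or 3. Of the 13, 6 overlap another gene on the same strand and 3 overlap one on the opposite strand.

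Cells labelled KD offer the closest comparison, and both comparisons use the same WT libraries, so their values are given side by side only. CG33462 was 0.55 above WT in PARPi and 0.58 above WT in KD on the log2 scale, Tpst 0.40 and 0.30, and mt:ND2 0.77 and 0.47. These 3 were the called genes that also passed the test in KD against WT, in which 7.44% of all genes passed; as the 13 had been picked with the same WT libraries, their count is not set against that share. Direct contrasts of PARPi with KD called 5.2% of all genes, or 15.3% with the replicate number as a block. In these 2 groups replicates 1 and 2 each deviated from their group mean most like the library of the same number. PARPi replicate 3 did not, with a correlation of deviations of 0.18 with KD replicate 3 and 0.23 with KD replicate 2. The 13 genes had likewise been picked for their values in these PARPi libraries, so their differences from KD are given as values and not counted against those shares. Nxf3 was at 11.1, 9.36 and 10.7 CPM in KD, and PARPi was 0.89 lower than KD on the log2 scale (edgeR adjusted p = 6.1e-05). The level of eIF4EHP in KD was 54.2, 58.1 and 60.3 CPM, with PARPi 0.35 higher (adjusted p = 0.0029). For CG33462 the difference was -0.02 (adjusted p = 0.90) and for Tpst 0.10 (adjusted p = 0.46), neither past the threshold with or without the block. GstE2, Nhe2 and mt:ND2 passed only with the block, at adjusted p-values of 0.037, 0.018 and 0.039 against 0.099, 0.080 and 0.13 without it.

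RNA of the inhibitor's target did not differ beyond the spread between libraries. Parp1 (3R, 3461351 to 3587054, minus strand) was at 171, 182 and 159 CPM in WT and 161, 147 and 156 CPM in PARPi, a log2 fold change of -0.14 (SE 0.078, adjusted p = 0.50). The lowest WT library was below the highest PARPi library. Parg was at 9.15, 10.3 and 10.6 CPM in WT and 10.6, 9.45 and 9.70 CPM in PARPi, a log2 fold change of -0.01 (SE 0.081, adjusted p = 0.98). In cells labelled KD, Parp1 RNA was at 157, 168 and 136 CPM and did not pass the test against WT either (log2 fold change -0.15, adjusted p = 0.29), so the RNA does not check that label. The study's own check of it was a Western blot of the protein, which was not used here. Of 13 genes of PAR and NAD turnover none was called by edgeR, 1 had an unadjusted p below 0.05 with a higher and 2 with a lower level, and DESeq2 called 1. This was Naam, the nicotinamidase that returns nicotinamide to the NAD pool, at 28.2, 30.5 and 26.5 CPM in WT and 36.2, 33.3 and 36.3 CPM in PARPi, a log2 fold change of 0.31 (SE 0.068, edgeR adjusted p = 0.078) with no overlap. Sirt6, an NAD-dependent deacylase, was at 16.0, 15.7 and 16.2 CPM in WT and 12.3, 13.8 and 14.7 CPM in PARPi (log2 fold change -0.23, edgeR adjusted p = 0.25). Sarm, an NAD-cleaving enzyme, had a log2 fold change of -0.20 (edgeR adjusted p = 0.37), with overlapping groups.

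The lists that follow were each compared with the same counts over all genes tested, and none was tested as a list. With 0.116% of all genes called, most lists would hold no called gene at the background share, and 42 of 46 held none. In 35 of 40 functional lists the median log2 fold change lay between -0.1 and 0.1. Counts at an unadjusted p below 0.05 moved with single libraries over all genes tested as well: in place of 621 higher and 686 lower they were 594 and 898 without PARPi replicate 1 and 541 and 521 without WT replicate 3.

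**Figure D3:**
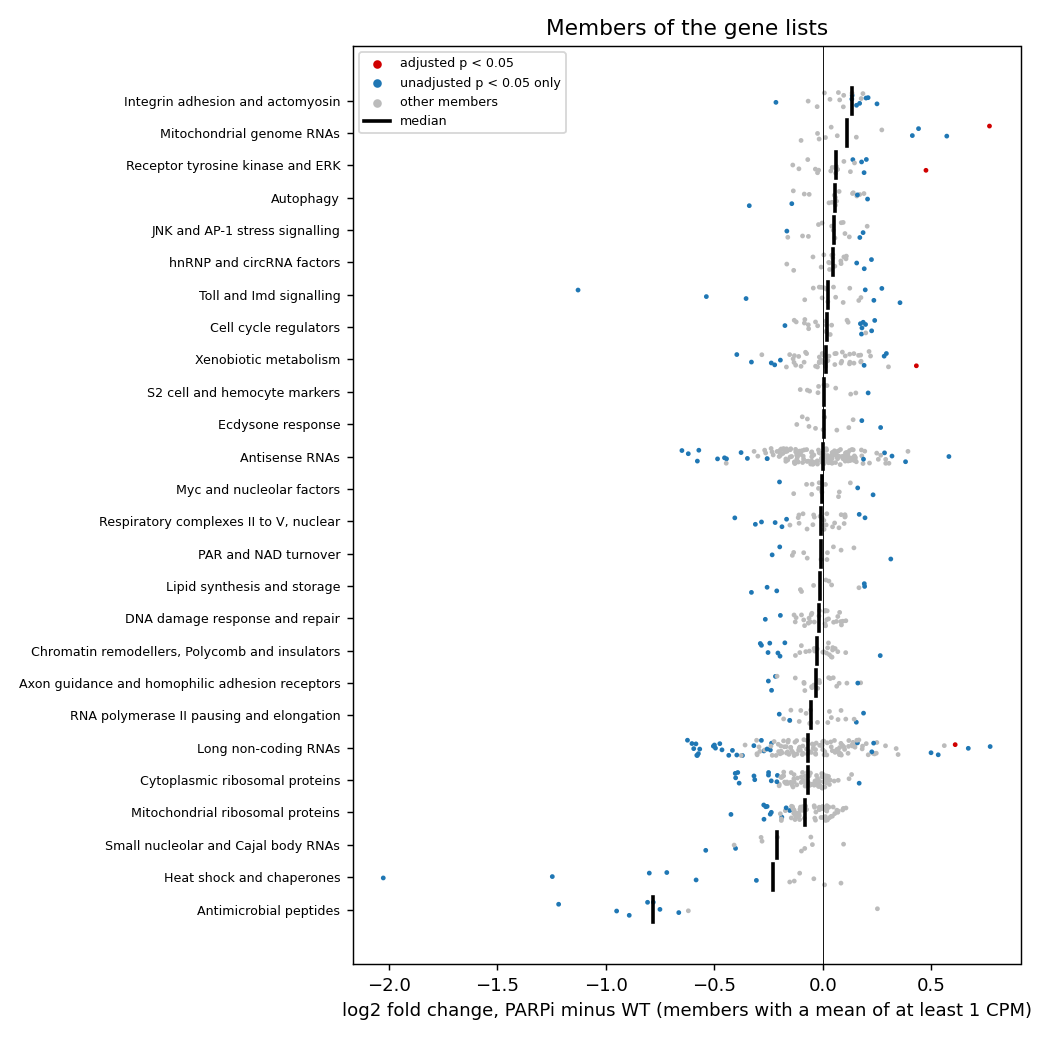
Each point is a member of a gene list averaging 1 CPM or more, placed by its log2 fold change (PARPi minus WT) on the horizontal axis, with small random offsets in height. Red marks an adjusted p below 0.05, blue an unadjusted p below 0.05 only, and the black bar is the median of the plotted members. Antimicrobial peptide and heat shock genes reach farthest to the left, and the mitochondrial genome has the called member mt:ND2 at the right.

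RNAs of the mitochondrial genome averaging 1 CPM or more ranged from a log2 fold change of -0.10, in mt:lrRNA, to the largest rise of the comparison. Of 15 such genes 14 were tested, 1 was called (mt:ND2), 5 had an unadjusted p below 0.05 with higher levels and none with lower levels, and the median log2 fold change was 0.21 (0.11 over the 12 that averaged 1 CPM or more) against -0.0055 over all genes tested. Without PARPi replicate 1 the median was 0.33, 7 were higher at an unadjusted p below 0.05 and 4 were called. The complex I subunit mt:ND5 was at 1419, 1320 and 1184 CPM in WT and 1724, 2283 and 1824 CPM in PARPi, a log2 fold change of 0.57 (SE 0.13, edgeR adjusted p = 0.090). Another, mt:ND1, was at 1234, 1192 and 1284 CPM in WT and 1408, 1910 and 1621 CPM in PARPi, a log2 fold change of 0.41 (SE 0.12, edgeR adjusted p = 0.18). In both the groups did not overlap, PARPi replicate 1 was the lowest treated library, and replicate 2 the highest. The cytochrome oxidase subunits had log2 fold changes of 0.07 (mt:CoI), -0.02 (mt:CoII) and -0.02 (mt:CoIII), and mt:ATPase6 one of 0.01. The complex I subunit mt:ND3 had 0.04. These 5 genes were chosen after their values were seen, as those closest to zero among the 12. The ribosomal RNAs, also named after their values were seen, had overlapping groups. The log2 fold change was -0.10 for mt:lrRNA (edgeR adjusted p = 0.83) and 0.44 for mt:srRNA (edgeR adjusted p = 0.24). The share of all counts that came from the mitochondrial genome was 13.7%, 12.6% and 14.2% in WT and 11.5%, 15.2% and 13.5% in PARPi (exact two-sided permutation p = 1; the smallest possible with 3 against 3 is 0.1). Most of it was the large ribosomal RNA mt:lrRNA, and without it the share was 3.56 ± 0.17% in WT and 3.89 ± 0.51% in PARPi (SD, n = 3, exact permutation p = 0.4). The shares of both groups overlap.

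Nuclear genes of the respiratory chain differed in both directions, and those of the ribosome showed a few members with lower levels. Of 35 tested nuclear genes of respiratory complex I none was called by edgeR or DESeq2. At an unadjusted p below 0.05, 2 were higher and 3 lower, and the median was -0.06. Without WT replicate 3 it was 3 higher and none lower. The smallest p-values were those of ND-49 (log2 fold change 0.18, edgeR adjusted p = 0.23), ND-23 (0.18, 0.28) and ND-B12 (-0.25, 0.29). Of 40 tested genes of respiratory complexes II to V none was called by edgeR, 3 had an unadjusted p below 0.05 with higher and 6 with lower levels, 2 were called lower by DESeq2, and the median was -0.01; without WT replicate 3 it was 2 higher and 3 lower. The member with the smallest p was UQCR-6.4, a small subunit of complex III, at 131, 141 and 146 CPM in WT and 92.8, 123 and 98.9 CPM in PARPi (log2 fold change -0.41, SE 0.090, edgeR adjusted p = 0.079). Its groups did not overlap, but PARPi replicate 2 came close to WT. Of 71 mitochondrial ribosomal protein genes none was called with edgeR or DESeq2, 10 had an unadjusted p below 0.05, all with lower levels, and the median was -0.08. It was 4 members and -0.03 without WT replicate 3, 5 members and -0.05 without PARPi replicate 1, and the median was -0.01 with the trend on exon length removed. mRpL34 was at -0.42 (edgeR adjusted p = 0.19). Of 84 cytoplasmic ribosomal protein genes none was called by edgeR, 11 were lower and 1 higher at an unadjusted p below 0.05, DESeq2 called 2 lower, and the median was -0.07. RpS15Ab, a paralog of RpS15Aa, had the smallest p of these (log2 fold change -0.31, edgeR adjusted p = 0.12), and reads of such close copies may be split between them. RpL39 was at 3560, 3439 and 3913 CPM in WT and 2289, 3360 and 2600 CPM in PARPi (log2 fold change -0.40, edgeR adjusted p = 0.18), and RpL41 had -0.40 (edgeR adjusted p = 0.24). Without WT replicate 3 the median of the cytoplasmic list was 0.01 and 3 members were lower and 3 higher at an unadjusted p below 0.05, and without PARPi replicate 1 it was -0.02 with 5 lower and 1 higher. Ribosomal protein genes took 31.2 ± 1.26% of counts in WT and 29.7 ± 1.15% in PARPi (SD, n = 3, exact permutation p = 0.3). Many of these genes are short, and the levels of short genes are given with the length classes.

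Heat shock genes held the largest log2 fold changes among genes of at least 1 CPM, and WT replicate 3 was high in them. Of 21 heat shock and chaperone genes 19 were tested and 12 reached a mean of 1 CPM. None was called by edgeR, and DESeq2 called 1. At an unadjusted p below 0.05, 12 of the 19 tested were lower and none higher, against 6.14% and 5.56% of all genes tested. Those lower that averaged 1 CPM or more were Hsp70Bb, Hsp68, Hsp23, Hsp26, Hsp27 and Hsp83, and the rest averaged below 1 CPM. The median log2 fold change was -0.72 over the 19 and -0.23 over the 12 that reached 1 CPM. Hsp70Bb, an inducible Hsp70, was at 2.44, 1.07 and 10.9 CPM in WT and 0.961, 1.31 and 1.26 CPM in PARPi, a log2 fold change of -2.03 (SE 0.52, edgeR adjusted p = 0.12). The Hsp70 genes are near-identical copies, so their reads cannot be assigned with certainty. The small heat shock gene Hsp26 was at 30.2, 19.8 and 85.1 CPM in WT and 13.6, 20.3 and 23.1 CPM in PARPi, with a log2 fold change of -1.25 (SE 0.35, edgeR adjusted p = 0.17). In both genes WT replicate 3 was far above the other WT libraries, and WT replicate 2 was within the PARPi range. Without WT replicate 3 the log2 fold changes were -0.57 for Hsp70Bb and -0.39 for Hsp26, the median of the list was -0.25, and 2 members, against 7 without PARPi replicate 1, had an unadjusted p below 0.05. Hsp83, the fly Hsp90, separated the groups without that library. It was at 1032, 1074 and 1073 CPM in WT and 902, 831 and 839 CPM in PARPi, a log2 fold change of -0.31 (SE 0.068, edgeR adjusted p = 0.079), with no overlap, and -0.29 without WT replicate 3. Hsf, the heat shock transcription factor, was at 55.4, 53.1 and 55.7 CPM in WT and 54.1, 54.1 and 56.9 CPM in PARPi; it is named as the regulator of these genes, outside the rule for named genes and after its values were seen.

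Antimicrobial peptide genes, the effectors of the Toll and Imd immune pathways, had the lowest median of the lists, -0.78. All 15 were tested and 9 reached a mean of 1 CPM. By edgeR none was called, 8 of the 15 had an unadjusted p below 0.05 with lower levels and none with higher levels, and DESeq2 called none. Their summed level was 71.8, 55.7 and 170 CPM in WT and 45.6, 62.4 and 67.1 CPM in PARPi. WT replicate 3 alone was high, and the other WT libraries lay within or close to the PARPi range; without WT replicate 3 the median was -0.01, with 1 member lower and 1 higher at an unadjusted p below 0.05. CecB, a cecropin, was at 6.55, 5.61 and 18.4 CPM in WT and 4.50, 6.11 and 5.85 CPM in PARPi (log2 fold change -0.89, SE 0.29, edgeR adjusted p = 0.24). Another cecropin, CecA2, was at 8.69, 6.90 and 18.7 CPM in WT and 5.05, 8.10 and 6.79 CPM in PARPi (log2 fold change -0.78). CecC did not share this pattern. It was at 8.90, 8.53 and 6.20 CPM in WT and 1.98, 5.36 and 6.21 CPM in PARPi (log2 fold change -0.81, edgeR adjusted p = 0.28), with PARPi replicate 1 the lowest library.

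**Figure D4:**
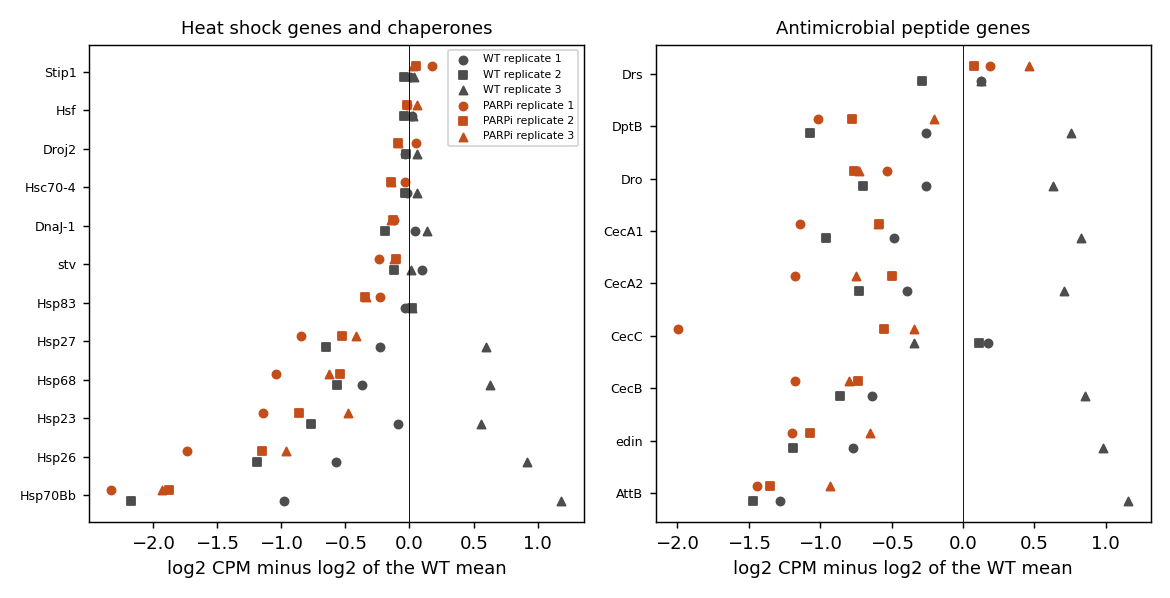
Rows are heat shock and chaperone genes (left) and antimicrobial peptide genes (right) averaging 1 CPM or more, and the horizontal axis is the log2 CPM of a library minus the log2 of the WT mean. Grey symbols are WT and orange symbols PARPi, with a circle, square and triangle for replicates 1, 2 and 3. WT replicate 3 (grey triangle) lies to the right for Hsp70Bb, Hsp26 and most peptide genes, and Hsp83 separates the groups without it.

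The genes upstream of the peptides gave a mixed picture. Of 23 tested genes of Toll and Imd signalling none was called by edgeR, 4 were higher and 3 lower at an unadjusted p below 0.05, DESeq2 called 1 higher and 1 lower, and the median was 0.02. PGRP-SA, a secreted receptor that senses peptidoglycan for the Toll pathway, was at 51.1, 54.4 and 56.7 CPM in WT and 66.4, 73.7 and 67.5 CPM in PARPi, a log2 fold change of 0.36 (SE 0.070, edgeR adjusted p = 0.051). PGRP-SD, another secreted recognition protein, was at 13.0, 10.2 and 13.2 CPM in WT and 7.003, 9.06 and 9.02 CPM in PARPi, a log2 fold change of -0.54 (SE 0.11, edgeR adjusted p = 0.063). These genes of one family lay on opposite sides of WT, each without overlap, and neither passed the adjusted threshold. Dredd, the caspase of the Imd pathway, had a log2 fold change of 0.27 (edgeR adjusted p = 0.24). The Imd inhibitor pirk, named after its values were seen, was at 27.8, 20.4 and 112 CPM in WT and 21.0, 22.8 and 29.2 CPM in PARPi, with WT replicate 3 high as for the peptides. Rel, the NF-kappaB factor of the Imd pathway and named likewise, was at 106, 94.3 and 161 CPM in WT and 100.1, 89.3 and 93.2 CPM in PARPi.

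Growth factor signalling and adhesion had medians above that of all genes, the first within the -0.1 to 0.1 of most functional lists. Of 23 genes of receptor tyrosine kinase and ERK signalling 1 was called (Pvf1), 5 were higher and none lower at an unadjusted p below 0.05, and the median was 0.06; without WT replicate 3 it was 2 higher and none lower, and without PARPi replicate 1 4 higher and 2 lower. Pvf3, a further ligand of Pvr, was at 79.2, 74.8 and 71.0 CPM in WT and 84.2, 84.3 and 88.2 CPM in PARPi (log2 fold change 0.19, edgeR adjusted p = 0.24), and rho, the protease that releases EGF ligands, had 0.18 (edgeR adjusted p = 0.36). Of 20 genes of integrin adhesion and actomyosin none was called by edgeR, DESeq2 called 1, and the median was 0.12. At an unadjusted p below 0.05, 7 were higher and 1 lower. Higher levels without overlap were found for 8, against 8.8% of all genes tested. The myosin regulatory light chain sqh was at 325, 326 and 372 CPM in WT and 406, 408 and 401 CPM in PARPi (log2 fold change 0.25, SE 0.068, edgeR adjusted p = 0.15). The GTPase Rac2 had 0.20 (edgeR adjusted p = 0.21) and the integrin beta subunit mys 0.21 (edgeR adjusted p = 0.28), both without overlap. Without PARPi replicate 1 the list median was 0.07, and 2 members were higher at an unadjusted p below 0.05. Of 17 genes of JNK signalling none was called by either tool and 2 were higher and 1 lower at an unadjusted p below 0.05; egr, the fly TNF ligand, was at 188, 168 and 173 CPM in WT and 199, 197 and 206 CPM in PARPi (log2 fold change 0.19, edgeR adjusted p = 0.25), and Mmp1, a matrix metalloprotease, had 0.17 (edgeR adjusted p = 0.28).

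Among 25 cell cycle regulators 9 were higher and 1 lower without overlap, against 8.8% and 6.67% of all genes tested. This was not particular to them. Without overlap, 6 of 23 receptor tyrosine kinase and ERK genes were higher and 1 lower, and 5 of 17 JNK genes higher and 0 lower. None of the cell cycle regulators was called by edgeR, as with most lists at a background of 0.116%. At an unadjusted p below 0.05, 7 were higher and 1 lower, DESeq2 called 1, and the median was 0.02. Without PARPi replicate 1 it was 6 higher and 4 lower. The Cdc25 phosphatase stg, which drives entry into mitosis, was at 214, 206 and 192 CPM in WT and 254, 240 and 228 CPM in PARPi (log2 fold change 0.24, SE 0.069, edgeR adjusted p = 0.18). The inhibitor of cyclin E and Cdk2, dap, was at 48.5, 45.3 and 48.0 CPM in WT and 58.6, 53.7 and 53.5 CPM in PARPi (log2 fold change 0.23, edgeR adjusted p = 0.18), and CycA, a mitotic cyclin, had 0.18 (edgeR adjusted p = 0.24). Of 33 genes of DNA damage response and repair none was called by either tool and 3 were lower at an unadjusted p below 0.05 (5 without PARPi replicate 1), with a median of -0.02; Brca2 had a log2 fold change of -0.27 (edgeR adjusted p = 0.37) and tefu, the fly ATM kinase, -0.20 (edgeR adjusted p = 0.38), with overlapping groups in both.

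Genes of chromatin and transcription, processes in which PARP1 takes part, held no called member, which at a background of 0.116% of all genes does not set these lists apart. Of 29 chromatin remodelling, Polycomb and insulator genes none was called by edgeR, 1 was higher and 7 lower at an unadjusted p below 0.05, DESeq2 called 1 in each direction, and the median was -0.03; without PARPi replicate 1 it was 1 higher and 11 lower, and 1 was called. Trl, the GAGA factor that opens promoters, was at 34.1, 32.7 and 33.5 CPM in WT and 37.4, 42.1 and 40.9 CPM in PARPi (log2 fold change 0.26, SE 0.065, edgeR adjusted p = 0.11). The Polycomb group gene Psc was at 39.6, 38.2 and 37.9 CPM in WT and 32.7, 30.4 and 31.6 CPM in PARPi (log2 fold change -0.29, SE 0.076, edgeR adjusted p = 0.13), and ph-p, of the same complex, had -0.28 (edgeR adjusted p = 0.22). Neither Polycomb gene had overlapping groups. Of 21 genes of RNA polymerase II pausing and elongation none was called by either tool and 2 were higher and 2 lower at an unadjusted p below 0.05, or 1 and 7 without PARPi replicate 1; the elongation factor TfIIS had 0.19 (edgeR adjusted p = 0.24), CycT, of the pause-release kinase, -0.20 (edgeR adjusted p = 0.32) and Nelf-E, of the pausing complex, 0.15 (edgeR adjusted p = 0.41). Among 20 hnRNP and other circRNA-related factors none was called by either tool and 3 were higher and none lower at an unadjusted p below 0.05, or 1 and 2 without WT replicate 3. Adar, the RNA-editing enzyme, was at 43.1, 41.9 and 37.7 CPM in WT and 43.6, 46.7 and 53.2 CPM in PARPi (log2 fold change 0.22, edgeR adjusted p = 0.25), while the splicing regulators heph and Hrb98DE had 0.19 (edgeR adjusted p = 0.35) and 0.16 (edgeR adjusted p = 0.38).

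Lipid synthesis genes had their smallest p-values at enzymes of fatty acid production. Of 12 tested genes none was called by edgeR, 2 were higher and 3 lower at an unadjusted p below 0.05, and DESeq2 called 2, both lower. FASN1, fatty acid synthase, was at 1549, 1352 and 1375 CPM in WT and 1225, 1088 and 1092 CPM in PARPi (log2 fold change -0.33, SE 0.081, edgeR adjusted p = 0.11). ACC, which makes the malonyl-CoA it uses, was at 250.2, 227 and 235 CPM in WT and 214, 189 and 193 CPM in PARPi (log2 fold change -0.26, SE 0.070, edgeR adjusted p = 0.15), and Lpin, a phosphatidate phosphatase, had -0.21 (edgeR adjusted p = 0.22). In all 3 genes the highest PARPi library was below the lowest WT library. The 2 higher members, named after their values were seen, were bmm (0.19, edgeR adjusted p = 0.28) and Seipin (0.19, edgeR adjusted p = 0.26), without overlap. ATPCL, AcCoAS and Desat1, named likewise, had -0.10, -0.04 and 0.04, with overlapping groups. Of 116 tested genes of xenobiotic metabolism 1 was called (GstE2), 9 were higher and 5 lower at an unadjusted p below 0.05, and the median was 0.05. GstD5, another glutathione S-transferase, was at 17.0, 13.8 and 14.7 CPM in WT and 10.4, 12.3 and 11.9 CPM in PARPi (log2 fold change -0.40, SE 0.099, edgeR adjusted p = 0.11), and the cytochrome P450 gene Cyp12e1 had 0.29 (edgeR adjusted p = 0.15).

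Non-coding RNAs gave 1 called gene among 526 long non-coding RNAs tested, lncRNA:CR45102, with 23 higher and 41 lower at an unadjusted p below 0.05 and a median of -0.05, and DESeq2 called 3 in each direction. The balance rested on single libraries: without PARPi replicate 1 it was 32 higher and 23 lower with a median of 0.01 and 5 called, and without WT replicate 3 19 higher and 26 lower with a median of -0.03. lncRNA:CR32582 was at 9.50, 9.06 and 11.4 CPM in WT and 6.09, 7.30 and 6.33 CPM in PARPi (log2 fold change -0.60, SE 0.12, edgeR adjusted p = 0.051), and lncRNA:CR43967 at 48.9, 52.1 and 57.3 CPM in WT and 31.6, 43.0 and 37.5 CPM in PARPi (log2 fold change -0.50, SE 0.10, edgeR adjusted p = 0.051). Both were just outside the threshold, without overlap. Of 372 antisense RNAs none was called by edgeR, 12 were higher and 15 lower at an unadjusted p below 0.05, and DESeq2 called 1 in each direction; without PARPi replicate 1 edgeR called 4. Without a stated strand setting their reads cannot be told apart from those of the genes they overlap. Small nucleolar and Cajal body RNAs were mostly near the detection limit: of 114 tested, 11 reached a mean of 1 CPM, none was called by either tool, and 1 was higher and 12 lower at an unadjusted p below 0.05. Their median was -0.31 over all tested and -0.21 over the 11. Over all tested it was -0.29 without PARPi replicate 1, where 2 were higher and 5 lower. It was -0.45 without WT replicate 3, where none was higher and 14 were lower, and -0.14 once the trend on exon length was removed.

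The length of a gene went with its difference from the WT mean in PARPi replicate 1. The study asks about elongation along genes, so the 7404 genes of at least 1 CPM with a known length were split into 5 classes of equal size by exon length and by gene span, as a description without a test. In the shortest class, 72 to 1124 bases of exon, the median level relative to the WT mean was -0.20 in PARPi replicate 1, 0.01 in replicate 2 and -0.05 in replicate 3 on the log2 scale, and -0.07, 0.02 and 0.05 in WT replicates 1 to 3. The median log2 fold change in this class was -0.08, with 46 genes higher and 228 lower at an unadjusted p below 0.05, and it was -0.03 without PARPi replicate 1 and -0.11 without WT replicate 1. In the longest class, above 4072 bases, the median was -0.02 and 110 genes were higher and 212 lower, and the median was -0.07 without PARPi replicate 1 and 0.007 without WT replicate 1. The exon length classes between ran the other way, with medians of 0.0085, 0.028 and 0.023 from shorter to longer. In these, 99, 140 and 131 genes were higher and 56, 29 and 40 lower at an unadjusted p below 0.05. By gene span the shortest class had -0.07 and the longest, from 7376 to 394149 bases, 0.01. WT replicates 1 and 3 themselves ran in opposite directions across the classes, and the WT and PARPi libraries overlapped in the shortest and in the longest class. The shortest class took 29.5%, 30.6% and 31.6% of all counts in WT and 27.3%, 30.3% and 29.1% in PARPi (exact permutation p = 0.2). With the trend on exon length removed from every library, 161 genes were called, among them the 13.

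**Figure D5:**
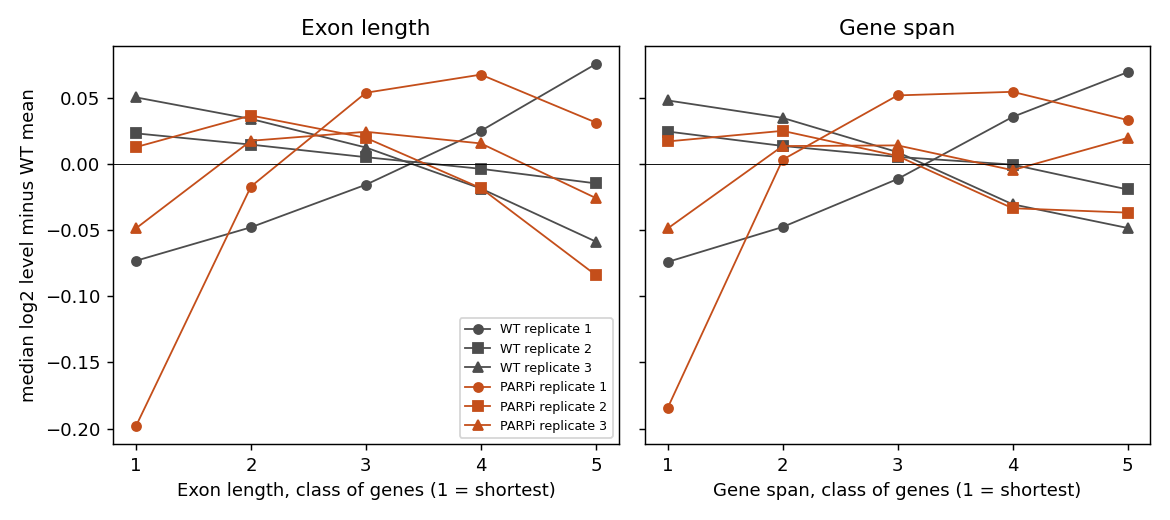
The horizontal axes are 5 classes of genes of equal size by exon length (left) and gene span (right), 1 being the shortest, and the vertical axis is the median, over the genes of a class, of the log2 level in a library minus the WT mean. Grey lines are WT and orange lines PARPi, with a circle, square and triangle for replicates 1, 2 and 3. PARPi replicate 1 (orange circle) lies at -0.20 in the shortest class by exon length and at -0.18 in the shortest by gene span, and by exon length the value next farthest from zero is that of PARPi replicate 2 in the longest class, -0.084.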

How the data were processed

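The authors deposited a table of raw counts per gene; per the labels and the study's methods, rRNA-depleted paired-end reads were checked with FastQC (0.10.1), aligned to BDGP6 with STAR (2.6) and counted with HTSeq (0.10.0), while no source used here gives the strand setting or annotation release. Columns were matched to libraries by title. An annotation of BDGP6 from Ensembl gave symbols and coordinates for 17599 of 17737 gene IDs.

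Counts of the 9 December libraries were scaled by TMM and fitted in a single edgeR (4.0.16, R 4.3.3) quasi-likelihood model of 3 groups without a block, genes with at least 10 counts over the 6 WT and PARPi libraries, Benjamini-Hochberg threshold 0.05; DESeq2 (1.42.0) and other alternatives are given in the closing section. Shares were compared by exact permutation. Per-library medians used log2(CPM + 0.1). An SE is the absolute log2 fold change divided by the square root of the quasi-likelihood F statistic, so it was derived from the test.

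Named genes were Parp1 and Parg, up to 12 called rises and 12 called falls averaging 1 CPM or more without overlap, genes called without each library, and up to 3 members per described list with the smallest p. The members and lists were chosen with earlier results of these data known. Intervals and SDs do not cover mapping error.

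Libraries of the same number correlated in their deviations from the group means at 0.64, 0.41 and 0.18 between PARPi and KD, so that contrast is also given with the block. PARPi replicate 3 correlated more with KD replicate 2, at 0.23, so the block is uncertain for that number.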

Additional observations from a re-analysis of the deposited data

How the results depend on the processing

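The sign of all 13 called genes held in each of 24 alternatives; of the 312 gene values under alternatives, 265 were still called and 47 were not, and eIF4EHP, lncRNA:CR45102 and CG33462 were called in each. The number of genes called for PARPi against WT depended on the processing. From 13 genes (11 higher, 2 lower) it went to 133 (60, 73) with DESeq2, 24 (15, 9) with RLE size factors, 23 (18, 5) with plain library sizes that left out the 20 most counted genes, 208 (65, 143) with every gene that had a count, 18 (14, 4) with filterByExpr, 25 (17, 8) in a fit of the 6 libraries alone, and 161 (95, 66) with the trend on exon length removed. With minimums chosen after seeing the data it was 34 (18, 16) for 10 counts over the 9 libraries and 11 (8, 3) for a mean of at least 1 CPM. Leaving out a single library of the 9 gave 4 to 94 genes (4 to 38 higher, 0 to 56 lower). Replicate numbers did not pair PARPi with WT (correlations of deviations 0.17, -0.01 and 0.03). The replicate block gave 394 genes (117, 277), the replicate block in the 6 libraries 103 (32, 71) and the replicate block with the trend on exon length removed 334 (176, 158), and each held the 13. Leaving out replicates 1, 2 and 3 in turn with the replicate block gave 251, 380 and 56 genes, which held 13, 13 and 10 of the 13. PARPi replicate 1 correlated best with its own number in WT, and replicates 2 and 3 with another.

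For PARPi against KD the 581 genes became 914 with DESeq2, 888 with plain library sizes, 1129 with no filter, 894 with the length trend removed, 1710 with the replicate block, 1237 with the block and the length trend removed, and 173 to 1624 without single libraries. Among 76 other named genes, 7 values reversed, all of Parg, whose log2 fold change of -0.01 became 0.0199 with plain library sizes, 0.0402 and 0.0611 with the replicate block without replicates 2 and 3, and -0.0713 to 0.0403 without single libraries; 301 of their 1824 values were called. Of 964 list medians, 890 moved by less than the SD between PARPi libraries.

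At 1 to 2 CPM the counting error was 9.32% of the level, against 0.937% at 100 to 200 CPM, and genes under 1 CPM limit what can be said of small RNAs and Hsp70 copies. With 3 libraries a group the exact permutation test cannot go below 0.1.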

Other observations

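Other groups of genes had named members with small differences. Of 15 Myc and nucleolar genes none was called by edgeR, 2 were higher and 1 lower at an unadjusted p below 0.05, and DESeq2 called 1. Myc, the growth regulator, was at 159, 137 and 146 CPM in WT and 170, 176 and 173 CPM in PARPi (log2 fold change 0.23, SE 0.065, edgeR adjusted p = 0.17), without overlap. Of 19 tested autophagy genes none was called by edgeR, 2 were higher and 2 lower at an unadjusted p below 0.05, and DESeq2 called 1. Atg8a, which coats autophagosomes, had 0.21 (edgeR adjusted p = 0.20) and Atg12, of the conjugation system, -0.34 (edgeR adjusted p = 0.22). Of 17 ecdysone response genes none was called by edgeR, 3 were higher and none lower at an unadjusted p below 0.05, and DESeq2 called 1. The nuclear receptor ftz-f1 was at 55.6, 47.3 and 46.5 CPM in WT and 57.1, 58.8 and 63.9 CPM in PARPi (log2 fold change 0.27, edgeR adjusted p = 0.17).

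Axon guidance and adhesion receptors had a median log2 fold change of -0.03, and of -0.0003 with the trend on exon length removed. Of 28 genes none was called by edgeR, 1 was higher and 4 lower at an unadjusted p below 0.05, and DESeq2 called 1. PlexB, a semaphorin receptor, was at 67.1, 61.6 and 58.9 CPM in WT and 54.7, 49.3 and 53.6 CPM in PARPi (log2 fold change -0.25, SE 0.078, edgeR adjusted p = 0.21), the ligand sli had -0.24 (edgeR adjusted p = 0.22) and its receptor robo1 -0.22 (edgeR adjusted p = 0.26), each with no overlap between groups.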
